A study of Oryza sativa with 15 samples.

Results

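The genes described here carried a listed differentially methylated region (DMR) in both T4 rice lines of the study and in none of the regions listed for plants regenerated from callus. They were chosen from the authors' region calls: a gene was taken when its identifier stood in the list of SDWT against the wild type and in the list of pOsNAR2.1-OsNAR2.1 against the wild type, and was missing from the list of CK against the wild type. This gave 200 of the 5284 genes named in any of the 3 lists (3.79%). They made up 13.3% of the 1499 genes in the SDWT list and 10.0% of the 1995 genes in the pOsNAR2.1-OsNAR2.1 list. A further 102 genes stood in both T4 lists and in the CK list of 2709 genes as well.

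Shoots of 10-day-old rice seedlings were measured by whole-genome bisulfite sequencing (WGBS), in which unmethylated cytosines are converted and methylated ones are read as cytosine. Each of the 4 groups had 3 libraries. WYJ7 was the untransformed japonica cultivar Wuyujing 7. CK plants were T0 plants regenerated from WYJ7 callus without a transgene, and they were moved from rooting medium to water. The pOsNAR2.1-OsNAR2.1 plants were T4 plants carrying the OsNAR2.1 coding sequence, which encodes a partner protein of high-affinity nitrate transporters, under its own promoter. SDWT plants were T4 plants without the transgene that had segregated from the same transformation, so both T4 lines had passed through callus culture, hygromycin selection and transformation. Each T4 line was 1 line from 1 transformation event. CK differed from both in generation, in how the seedlings were raised and in having had no hygromycin selection or transformation. These features cannot be told apart from the groups. The CK libraries came from independent calli. Whether the libraries of each T4 line came from separate plants is not given in the sources used here, so any p-value measures only the spread between these libraries, which may be technical.

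In plants, cytosine methylation is placed in the CG, CHG and CHH contexts, and CG methylation is copied to the new strand at each DNA replication by a maintenance methyltransferase. A CG pattern that is lost or gained can therefore be passed through cell division and, in plants, through seed. Methylation upstream of a gene is often linked to low transcription, whereas CG methylation within the body of a gene is common in transcribed genes. No transcript levels were analysed here.

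The 200 genes held 420 of the 11392 listed regions, 211 for SDWT and 209 for pOsNAR2.1-OsNAR2.1. A single region per line was listed for 183 genes, and the other 17 had up to 3 regions in a line. All but 1 region in each line were in the CpG context. The SDWT regions had a median width of 19 bp (range 5 to 116) and the pOsNAR2.1-OsNAR2.1 regions one of 25 bp (6 to 167), and the median region in both held 4 cytosines. Regions of this size are short relative to the upstream window of about 2 kb that the authors assigned to each gene. Of the 200 identifiers, 80 (40.0%) were of the EPlOSAG type and 120 of the OS locus type, and 39.8% of all listed genes were of the EPlOSAG type. None of the identifiers could be matched to a gene name or function, so genes are given by identifier alone, and all positions are on the IRGSP-1.0 build.

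The genes lay on all 12 chromosomes. Chromosome 1 held 30 of them (4.80% of its listed genes), and the share was 5.70% on chromosome 10, with 18 genes, and 2.49% on chromosome 11, with 9. Some lay close together. The nearest pair, OS01G0225550 and OS01G0225700 on chromosome 1, had regions 2650 bp apart, and OS11G0244800 and OS11G0245100 on chromosome 11 had regions 5199 bp apart.

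Most of the regions lay upstream of genes. In SDWT 169 of the 211 regions (80.1%) were upstream, 27 were in introns and 15 in exons. In pOsNAR2.1-OsNAR2.1 163 of 209 (78.0%) were upstream, 29 were in introns and 17 in exons. Over all regions with a gene, 79.7% of the SDWT list and 76.5% of the pOsNAR2.1-OsNAR2.1 list were upstream, so the position of the regions was close to that of the lists they came from.

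By the rule, none of these genes had a CK region, and none of their regions overlapped a CK region assigned to another gene. The nearest CK region was 118 bp away, the median distance was 27116 bp, and 2 of the regions had one within 1 kb. The levels of the CK libraries at these sites were not analysed here, so the lack of a listed region says only that no CK call was made.

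The methylation level of a region is the mean level of its cytosines in 1 library, in percent, and the difference between a line and WYJ7 is given in percentage points. The choice of genes used these differences, so the values against WYJ7 are a description without a test, and both T4 comparisons share the same WYJ7 libraries. In SDWT 122 of the 211 regions (57.8%) had a mean above the WYJ7 mean, hereafter hyper-DMRs, against 51.6% of all regions in its list, and 89 were hypo-DMRs. In pOsNAR2.1-OsNAR2.1 176 of the 209 regions (84.2%) were hyper-DMRs, against 76.9% of its list, and 33 were hypo-DMRs. The share of hyper-DMRs in SDWT was 58.6% upstream, 55.6% in introns and 53.3% in exons. In pOsNAR2.1-OsNAR2.1 it was 85.3%, 86.2% and 70.6%, the last from 17 regions.

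At the SDWT hyper-DMRs the median of the region means was 34.9% in WYJ7 and 67.2% in SDWT. At the SDWT hypo-DMRs it was 44.8% in WYJ7 and 13.8% in SDWT. At the pOsNAR2.1-OsNAR2.1 hyper-DMRs the medians were 37.3% in WYJ7 and 73.4% in the line. At its hypo-DMRs they were 33.0% and 3.29%. Over all hypo-DMRs with a gene the WYJ7 medians were 64.7% for SDWT and 59.8% for pOsNAR2.1-OsNAR2.1, so the hypo-DMRs of these genes started lower. The hyper-DMRs started higher, against medians of 23.0% and 28.7% over all hyper-DMRs with a gene.

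An intermediate level in WYJ7 was thus frequent. The WYJ7 mean lay between 10% and 80% in 157 SDWT regions (74.4%) and 164 pOsNAR2.1-OsNAR2.1 regions (78.5%), against 64.3% and 66.2% of all regions with a gene in the respective lists. The median SD of the 3 WYJ7 libraries was 10.3 percentage points over the SDWT regions of these genes and 9.71 over the pOsNAR2.1-OsNAR2.1 regions, against 8.58 and 7.24 in the whole lists. The T4 libraries were closer to each other, with a median SD of 7.48 for SDWT and 5.72 for pOsNAR2.1-OsNAR2.1, against 8.03 and 7.15 over the whole lists. All 3 SDWT libraries were at 0% in 29 regions (13.7%, against 11.5% of all its regions with a gene), and the pOsNAR2.1-OsNAR2.1 mean reached 80% or more in 70 regions (33.5%, against 25.1% of all its regions with a gene).

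**Figure D1:**
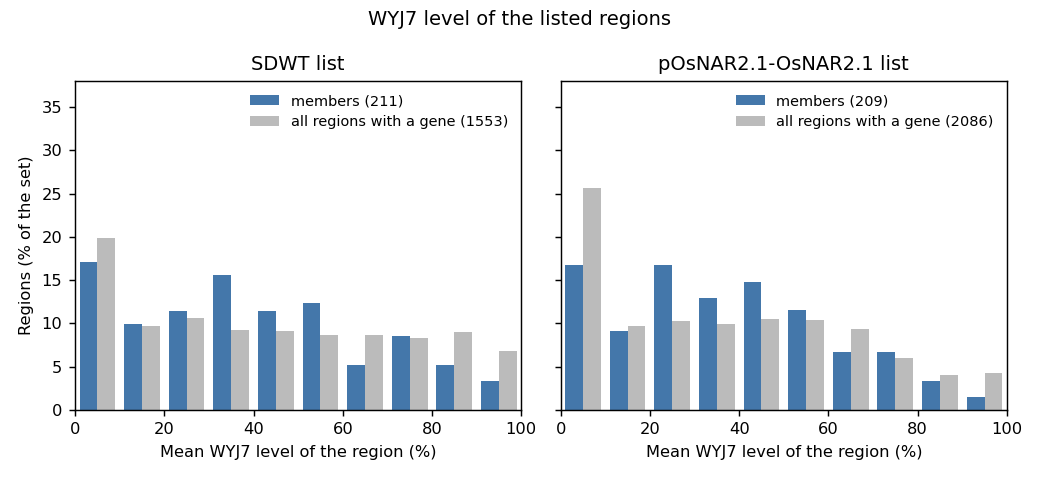
Share of regions (percent, y axis) by the mean WYJ7 methylation level of the region (percent, x axis), for the regions of the 200 genes and for all listed regions with a gene, in the SDWT list and the pOsNAR2.1-OsNAR2.1 list. Regions of these genes with a WYJ7 mean between 10% and 80% make up 74.4% for SDWT and 78.5% for pOsNAR2.1-OsNAR2.1, against 64.3% and 66.2% of all regions with a gene.

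The 3 libraries of the line did not overlap the 3 WYJ7 libraries in 151 of the 211 SDWT regions (71.6%), against 69.1% of its whole list. They did not overlap in 163 of the 209 pOsNAR2.1-OsNAR2.1 regions (78.0%), against 74.7% of its list. The absolute difference from WYJ7 had a median of 27.5 percentage points for SDWT and 29.2 for pOsNAR2.1-OsNAR2.1, and 44 and 37 regions differed by less than 20 points. Some of the smallest differences rested on 1 library. EPlOSAG00000020627 had 0%, 16.1% and 0% in WYJ7 and 0% in every SDWT library, a difference of -5.36 points. OS03G0322200 had 0% in all WYJ7 libraries and 0%, 0% and 12.5% in pOsNAR2.1-OsNAR2.1. Regions just outside the authors' threshold are not in the lists and were not analysed here.

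By gene, 109 of the 200 (54.5%) had only hyper-DMRs in both lines, against 52.0% of all 302 genes in both T4 lists, and 26 (13.0%) had only hypo-DMRs in both, against 15.6%. The direction differed in 61 genes: 58 (29.0%) had hypo-DMRs in SDWT but hyper-DMRs in pOsNAR2.1-OsNAR2.1, against 26.8% of the 302, and 3 were the reverse (1.5%, against 3.31%). These shares were close to those of all genes listed in both T4 lines, a set that includes the 200. Among the 102 genes that also stood in the CK list the shares were, in the same order, 47.1%, 20.6%, 22.5% and 6.86%. The remaining 4 of the 200 genes had regions of both directions in 1 line.

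The regions of both lines usually lay at the same place. In 155 genes (77.5%) an SDWT region overlapped a pOsNAR2.1-OsNAR2.1 region by at least 1 bp. Among the 102 genes that also stood in the CK list, 78 (76.5%) had such a shared site, so sharing a site was about as frequent there. The shared sites of the 200 genes numbered 160 pairs of regions (some regions overlapped more than 1), of which 136 were upstream, 16 in introns and 8 in exons by the SDWT annotation. At 99 of the 160 pairs both lines were above WYJ7, at 22 both were below it, at 37 SDWT was below and pOsNAR2.1-OsNAR2.1 above, and at 2 the reverse held.

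**Figure D2:**
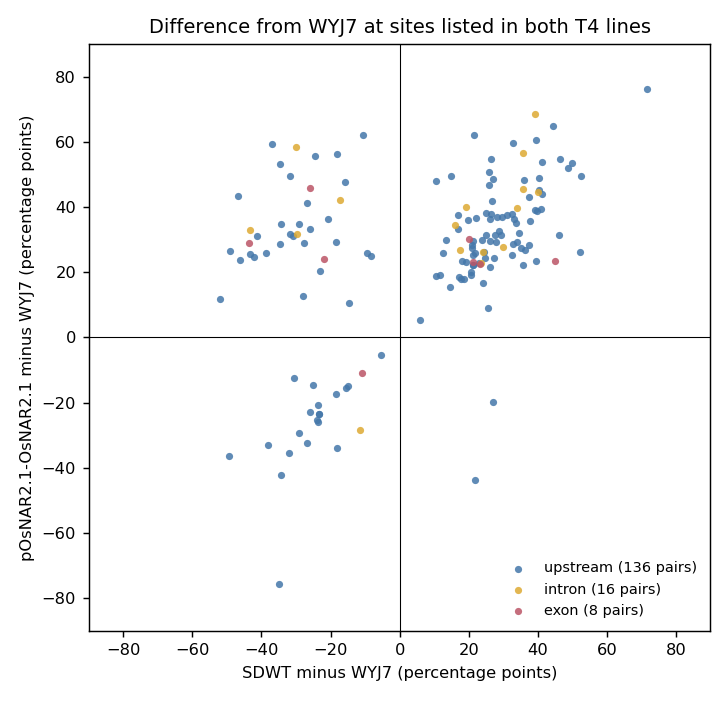
Difference from the WYJ7 mean (percentage points) for SDWT (x axis) and for pOsNAR2.1-OsNAR2.1 (y axis) at the 160 overlapping pairs of regions. Each region is set against the WYJ7 mean over its own boundaries, and both axes share the WYJ7 libraries; 99 pairs lie above WYJ7 in both lines, and 37 lie below WYJ7 in SDWT but above it for pOsNAR2.1-OsNAR2.1.

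Boundaries were identical in both lists at 96 of the pairs, in 95 genes, and there the 9 libraries of WYJ7, SDWT and pOsNAR2.1-OsNAR2.1 can be set side by side at the same site. The mean level over the 96 sites was 38.9%, 40.8% and 38.8% in the WYJ7 libraries, 47.5%, 47.3% and 49.7% in the SDWT libraries and 66.4%, 65.2% and 67.0% in those of pOsNAR2.1-OsNAR2.1. WYJ7 was between 10% and 80% at 81 of these sites, SDWT at 53 and pOsNAR2.1-OsNAR2.1 at 45. The pOsNAR2.1-OsNAR2.1 mean was above 80% at 42 sites, against 22 in SDWT and 3 in WYJ7. The median SD between libraries was 11.1 percentage points in WYJ7, 5.57 for SDWT and 4.73 for pOsNAR2.1-OsNAR2.1, likewise taken at unlike levels.

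**Figure D3:**
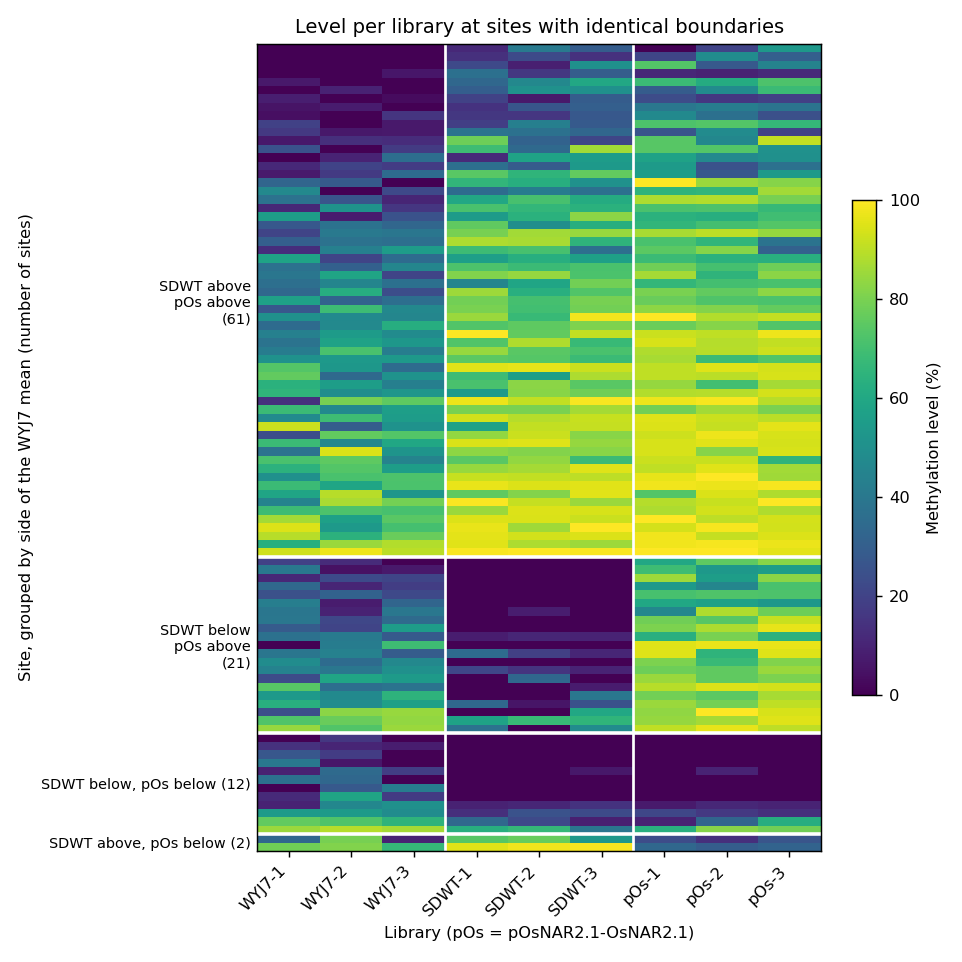
Methylation level (percent, colour) in each of 9 libraries (x axis) at the 96 sites with identical boundaries (y axis, grouped by the side of the WYJ7 mean on which each T4 line lay). The block of 21 sites below WYJ7 in SDWT but above it for pOsNAR2.1-OsNAR2.1 has a median level of 2.5% for SDWT and 80.3% for pOsNAR2.1-OsNAR2.1.

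The sites above WYJ7 in both lines were led by OS07G0525450, EPlOSAG00000009695 and EPlOSAG00000025823, all upstream. At OS07G0525450 (chr7:20418992-20419010) the WYJ7 libraries had 0%, 58.8% and 0%, the SDWT libraries 93.2%, 98.0% and 82.4%, and the pOsNAR2.1-OsNAR2.1 libraries 92.5%, 95.0% and 100% over a region 1 bp wider. Every T4 library was higher than the WYJ7 library that stood apart from the other two. At EPlOSAG00000009695 (chr10:15762251-15762262) WYJ7 had 20.5%, 40.5% and 39.1%, SDWT 79.4%, 86.2% and 84.4%, and pOsNAR2.1-OsNAR2.1 86.9%, 89.9% and 84.2%. The T4 means of 83.3% ± 3.53 (SD, n = 3) and 87.0% ± 2.82 (SD, n = 3) lay within 3.68 points of each other.

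Some of these sites were unmethylated or nearly so in WYJ7. EPlOSAG00000000403 (chr7:6071218-6071230, upstream) was at 0% in all WYJ7 libraries, at 49.8%, 64.2% and 25.3% in SDWT and at 72.1%, 28.6% and 63.9% in pOsNAR2.1-OsNAR2.1. The T4 libraries here differed among themselves by more than the lines did. EPlOSAG00000041808 (chr5:14313772-14313807, upstream) had 6.92%, 0% and 0% in WYJ7, 33.5%, 46.6% and 59.8% in SDWT and 68.2%, 61.6% and 72.0% in pOsNAR2.1-OsNAR2.1. The 3 groups did not overlap there. EPlOSAG00000030895 (chr9:21484135-21484140, upstream) had 0%, 9.72% and 0% in WYJ7 and between 30.0% and 50.5% in SDWT, and pOsNAR2.1-OsNAR2.1 ranged more widely, from 29.2% to 68.2%.

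Others started from an intermediate level and were near full methylation in the T4 plants. The intron region of OS08G0137250 (chr8:2097115-2097127) had 43.6%, 54.7% and 48.4% in WYJ7, 100%, 75.8% and 90.8% in SDWT and 92.1%, 90.5% and 97.5% in pOsNAR2.1-OsNAR2.1. Upstream of EPlOSAG00000007628 (chr7:24263312-24263328) the WYJ7 libraries had 73.3%, 52.8% and 35.0%, and all T4 libraries lay between 90.4% and 96.4%. Upstream of EPlOSAG00000000685 (chr8:20549577-20549588) the WYJ7 libraries had 14.0%, 79.6% and 75.2%, and all T4 libraries lay between 89.4% and 98.9%. At EPlOSAG00000007628 and EPlOSAG00000000685 the T4 libraries spread over a narrower range than the WYJ7 libraries, and at OS08G0137250 the SDWT libraries spread over a wider one.

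The upstream sites of OS01G0389700, OS02G0717400, EPlOSAG00000004454, EPlOSAG00000007332, EPlOSAG00000027057 and OS10G0113375 were also above WYJ7 in both lines, by 37.5 to 48.9 points in SDWT and by 38.6 to 53.7 points in pOsNAR2.1-OsNAR2.1.

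All pOsNAR2.1-OsNAR2.1 libraries lay above all SDWT libraries at 14 of the 61 sites with identical boundaries that were above WYJ7 in both lines. Over the series this share was computed only for all 276 sites with identical boundaries, on either side of WYJ7 (30.1%). The count of 14 is therefore a description without a like background. The intron region of OS07G0212200 (chr7:6135849-6135875) had 32.7%, 28.8% and 0% in WYJ7, 65.9%, 62.8% and 50.6% in SDWT and 100%, 85.0% and 81.9% in pOsNAR2.1-OsNAR2.1. Upstream of OS10G0379233 (chr10:12180308-12180329) the values were 37.6%, 26.3% and 10.5%, then 60.1%, 71.0% and 61.5%, then 87.8%, 88.5% and 79.4%, in the same order of groups. The pOsNAR2.1-OsNAR2.1 libraries exceeded the SDWT libraries without overlap at both, by 29.2 points at OS07G0212200 and 21.1 at OS10G0379233. EPlOSAG00000025823, whose regions had different boundaries, was the opposite case, with 82.8%, 84.6% and 97.8% in SDWT and 73.6%, 66.1% and 80% in pOsNAR2.1-OsNAR2.1.

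**Figure D4:**
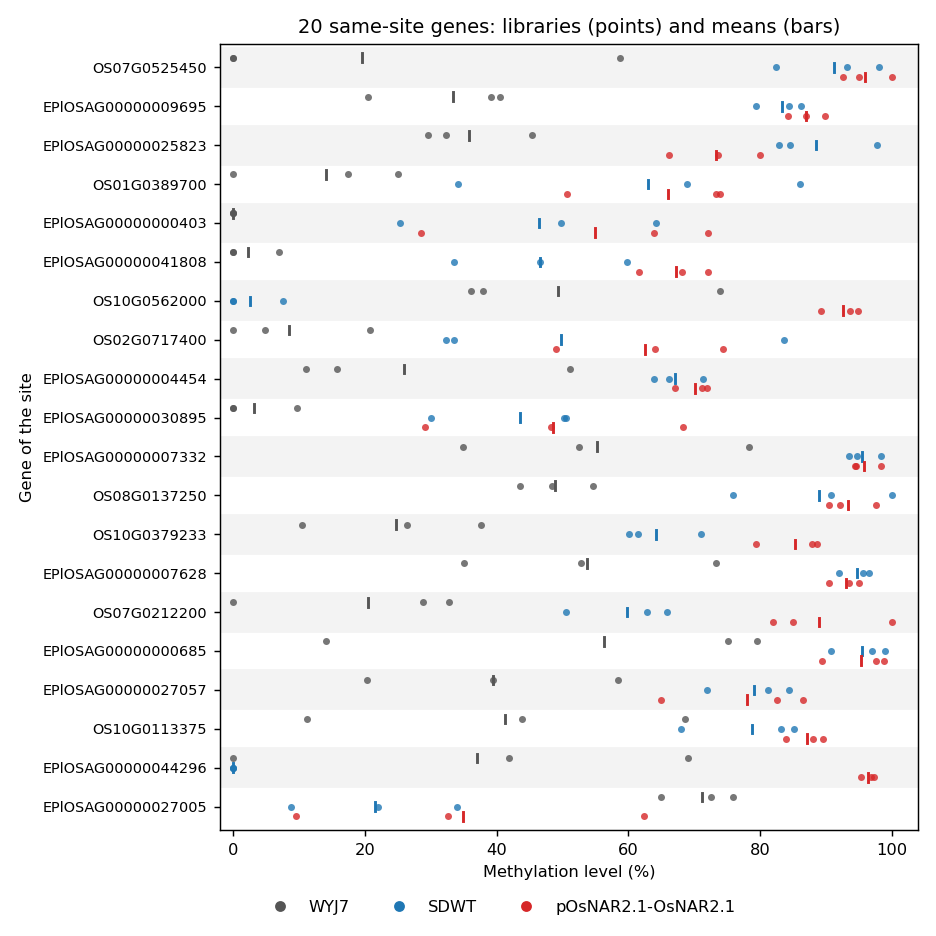
Methylation level (percent) in each library at the 20 genes whose shared site had the largest smaller difference of both lines from WYJ7. Points are libraries and vertical bars are means of 3; the WYJ7 levels are those of the SDWT region of each gene. Of the 20, 17 lie above WYJ7 in both lines, OS10G0562000 and EPlOSAG00000044296 lie on opposite sides and EPlOSAG00000027005 lies below in both.

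At 21 of the 96 sites (21.9%) SDWT was below WYJ7 and pOsNAR2.1-OsNAR2.1 above it, close to the 19.6% of all 276 sites with identical boundaries in the series. Here the direction of the difference between the lines is fixed by how the sites were grouped, and only the levels are described. WYJ7 had a median of 37.0% (range 10.5 to 80.6), SDWT one of 2.5% (0 to 63.4) and pOsNAR2.1-OsNAR2.1 one of 80.3% (56.6 to 96.4). All SDWT libraries were at 0% at 10 of the 21, and the pOsNAR2.1-OsNAR2.1 mean was 80% or more at 11. Of the 21 sites, 17 were upstream, 2 in introns and 2 in exons.

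The widest gap was upstream of EPlOSAG00000044296 (chr2:13316705-13316713), with 0%, 41.9% and 69.0% in WYJ7, 0% in all SDWT libraries and 95.2%, 97.2% and 96.8% in pOsNAR2.1-OsNAR2.1. The WYJ7 libraries spanned most of the range between the T4 lines. Upstream of OS10G0562000 (chr10:22169069-22169080) WYJ7 had 74.0%, 36.0% and 37.9%, SDWT 0%, 0% and 7.50%, and pOsNAR2.1-OsNAR2.1 89.2%, 94.9% and 93.7%. The groups did not overlap. In an exon of OS02G0518000 (chr2:18824654-18824669) the replicates were close, with 24.9%, 31.4% and 22.0% in WYJ7, 0% in all SDWT libraries and 71.0%, 72.5% and 72.0% in pOsNAR2.1-OsNAR2.1. In an exon of OS01G0257300 (chr1:8586421-8586434) they were not, since 1 SDWT library had 59.8% and the other two 0%, and WYJ7 had 23.6%, 82.6% and 84.6%, against 83.3%, 100% and 94.1% in pOsNAR2.1-OsNAR2.1.

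Among further upstream sites of this group, EPlOSAG00000000173 and EPlOSAG00000043524 were at 0% in all SDWT libraries. EPlOSAG00000000173 (chr8:26342013-26342036) had 28.6%, 20.6% and 55.1% in WYJ7 and 80.5%, 87.5% and 96.3% in pOsNAR2.1-OsNAR2.1. EPlOSAG00000043524 (chr10:21755589-21755615) had 19.2%, 12.2% and 0% in WYJ7 and 60.0%, 75.0% and 82.4% in pOsNAR2.1-OsNAR2.1. The site of OS12G0199100 (chr12:5151329-5151407) had the smallest gap between the lines in this group, with SDWT at 57.6%, 67.2% and 65.3%, WYJ7 at 72.4%, 77.3% and 83.9% and pOsNAR2.1-OsNAR2.1 at 84.1%, 86.5% and 95.2%, a gap of 25.2 points. These 3 genes were chosen after their values were seen.

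The reverse, SDWT above and pOsNAR2.1-OsNAR2.1 below, was seen at 2 sites (2.08%, against 3.99% of the 276). Upstream of EPlOSAG00000004955 (chr11:22638542-22638565) WYJ7 had 78.4%, 81.1% and 66.6%, SDWT 95.6%, 97.7% and 98.7%, and pOsNAR2.1-OsNAR2.1 33.3%, 29.6% and 31.7%. A second site of the same gene close by (chr11:22638658-22638674) was above WYJ7 in both lines, with 23.8%, 75.9% and 73.4% in WYJ7, 83.7%, 91.9% and 82.3% in SDWT and 92.5%, 97.3% and 93.8% in pOsNAR2.1-OsNAR2.1. Neighbouring stretches upstream of this gene thus differed in opposite directions in pOsNAR2.1-OsNAR2.1. The other site, upstream of OS08G0154225 (chr8:3118648-3118664) and named after its values were seen, had 33.3%, 79.5% and 9.72% in WYJ7, 74.0%, 76.7% and 53.3% in SDWT and 23.1%, 13.5% and 26.4% in pOsNAR2.1-OsNAR2.1, so the WYJ7 libraries overlapped both lines.

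At the 12 sites below WYJ7 in both lines, the median level was 23.4% in WYJ7 and 0% in both T4 lines. SDWT was at 0% in all libraries at 7 of them. EPlOSAG00000027005 (chr4:102039-102051, upstream) had the widest difference, with 75.8%, 72.6% and 64.9% in WYJ7, 34.0%, 22.0% and 8.84% in SDWT and 9.52%, 32.5% and 62.4% in pOsNAR2.1-OsNAR2.1. Both lines stayed below WYJ7 in every library, but 1 pOsNAR2.1-OsNAR2.1 library came within a few points of it.

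The T4 lines were not compared with each other when the genes were chosen. The choice did use the same library levels, each line against WYJ7. The 96 sites with identical boundaries were thus already selected by these levels, and the test between the lines is given only as a description. With 3 libraries against 3, a two-sided exact permutation test cannot give a p below 0.1, so no site could pass a threshold of 0.05, and the smallest p adjusted by Benjamini-Hochberg over the 96 sites was 0.246. All pOsNAR2.1-OsNAR2.1 libraries lay above all SDWT libraries at 35 sites (36.5%), against 30.1% of the 276 sites with identical boundaries in the whole series. They lay below at 4 sites (4.17%, against 5.43%), and the libraries overlapped at 57. Of the 39 sites without overlap, 23 were those where the lines lay on opposite sides of WYJ7, so the direction of their difference followed from the grouping. The median difference was 5.52 points, against 3.71 over the 276 sites, and pOsNAR2.1-OsNAR2.1 was the higher at 70 of 96 (72.9%, against 65.2%).

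The absolute difference between the T4 lines was under 10 points at 53 of the 96 sites and over 50 points at 21. The shares of such sites over the series were not computed. The median absolute difference was 7.9 points, close to the 7.3 points over the 276 sites with identical boundaries in the series. Both lines were called against the same WYJ7 libraries, so these counts only describe the chosen sites. At the 73 sites where both lines lay on the same side of WYJ7 the median difference was 3.06 points, against 1.57 over the 209 such sites of the series. The libraries of the lines did not overlap at 16 of the 73. The share over the 209 was not computed, so this count is a description without a like background and cannot be called a trait of these genes. The excess of pOsNAR2.1-OsNAR2.1 over SDWT in the mean level of the 96 sites therefore came largely from the 21 sites where the lines lay on opposite sides. Sites above WYJ7 in both lines ranged from -26.1 points at EPlOSAG00000027120 to 40.6 points at OS10G0176700, which had 18.7%, 43.3% and 28.4% in SDWT and 72.2%, 73.3% and 66.8% in pOsNAR2.1-OsNAR2.1. Both were named after their values were seen.

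**Figure D5:**
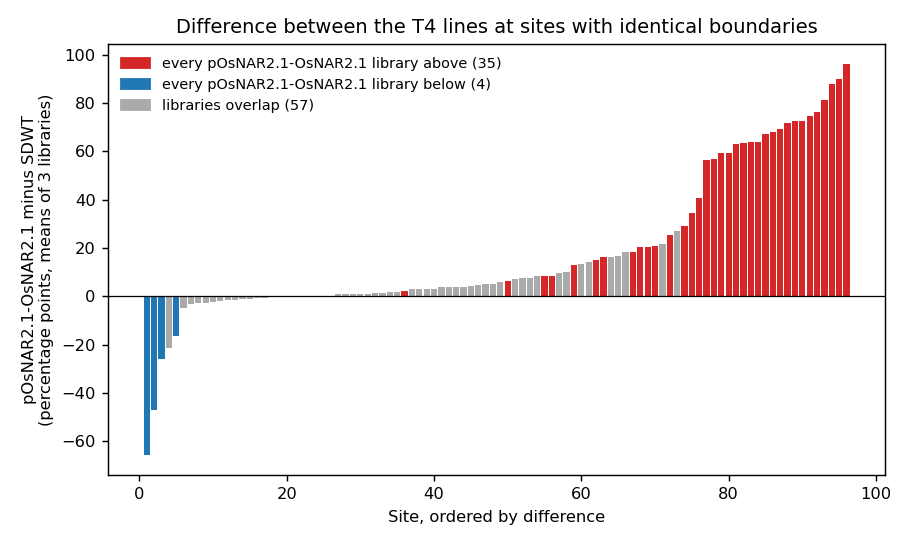
Difference in methylation level between pOsNAR2.1-OsNAR2.1 and SDWT (percentage points) at the 96 sites with identical boundaries, ordered by the difference (x axis). Bars are differences of the means of 3 libraries, coloured by whether every pOsNAR2.1-OsNAR2.1 library lay above (35 sites) or below (4 sites) every SDWT library or the libraries overlapped (57 sites), and the 61 sites above WYJ7 in both lines have a median of 3.85 points, and the 21 sites below WYJ7 in SDWT but above it for pOsNAR2.1-OsNAR2.1 one of 68.1 points.

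In the other 45 genes the lines had their regions at separate places, 22 to 5964 bp apart with a median of 519 bp. The gap was under 500 bp in 22 of them, and 33 had both regions in the same kind of feature. Upstream of OS04G0609400 on chromosome 4 the regions were 268 bp apart. The SDWT region (chr4:30864557-30864571) had 70.4%, 87.1% and 88.6% in WYJ7 and 29.0%, 9.52% and 34.3% in SDWT. The pOsNAR2.1-OsNAR2.1 region (chr4:30864840-30864846) had 0% in all WYJ7 libraries and 47.3%, 58.8% and 45.8% in pOsNAR2.1-OsNAR2.1. A stretch with high WYJ7 methylation was thus lower in SDWT, and a nearby unmethylated stretch was higher in pOsNAR2.1-OsNAR2.1.

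The same arrangement, lower in SDWT at one stretch and higher in pOsNAR2.1-OsNAR2.1 at another, held upstream of OS03G0348200 and EPlOSAG00000043154 and in the exons of OS10G0543500. In OS06G0300100 the SDWT stretch, in an intron, was lower than WYJ7 by a mean of 35.0 points but overlapped it, and the pOsNAR2.1-OsNAR2.1 stretch was upstream, at 0% in WYJ7 and at 69.7%, 61.4% and 23.5% in the line. In OS10G0543500 the stretches were 22 bp apart on chromosome 10. The SDWT stretch had 78.2%, 68.6% and 62.8% in WYJ7 and 28.0%, 50.7% and 27.8% in SDWT, and the pOsNAR2.1-OsNAR2.1 stretch had 29.0%, 14.5% and 40.4% in WYJ7 and 74.3%, 75.0% and 83.0% in the line. OS03G0576200 showed the reverse over 3206 bp, with an intron stretch at 0% in WYJ7 and 89.1%, 32.2% and 22.4% in SDWT, and an exon stretch at 100%, 92.0% and 94.7% in WYJ7 and 23.1%, 28.1% and 54.2% in pOsNAR2.1-OsNAR2.1. OS10G0451600 and OS07G0295601 had the widest separations of the genes named by rule, 4697 and 5964 bp, and both were above WYJ7 in both lines.

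Genes with several regions in a line mostly repeated one direction in that line. An exception was EPlOSAG00000004955, described above, which had both directions in pOsNAR2.1-OsNAR2.1. OS03G0854500 had 3 SDWT regions within its upstream stretch, all above WYJ7, by 18.1, 39.4 and 27.8 points, and 1 pOsNAR2.1-OsNAR2.1 region above it by 23.3 points. OS06G0652000 had 2 upstream regions per line. In the first, WYJ7 had 13.0%, 24.4% and 14.2% and SDWT 45.6%, 36.4% and 47.0%, and the pOsNAR2.1-OsNAR2.1 mean of 62.9% ± 3.94 (SD, n = 3) was over slightly different boundaries. EPlOSAG00000013000 had 1 SDWT region, above WYJ7 by 10.6 points with overlapping libraries, and 2 pOsNAR2.1-OsNAR2.1 regions above it by 20 and 47.9 points.

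Exon regions in both lines were listed for 11 genes. In OS01G0136700 (chr1:1974327-1974384) WYJ7 had 30.4%, 37.7% and 36.5%, SDWT 87.5%, 86.9% and 65.1%, and pOsNAR2.1-OsNAR2.1 71.2%, 65.7% and 38.2%. Both T4 lines lay above every WYJ7 library, and the T4 lines overlapped. In OS01G0196800 the lines had separate exon stretches on chromosome 1. SDWT was above WYJ7 by 32.5 points at its stretch, and pOsNAR2.1-OsNAR2.1 was below it at both of its stretches, by 14.8 and 27.4 points, with 0% in all libraries at the second.

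The single site outside the CpG context was upstream of OS06G0527500 on chromosome 6 (chr6:19571370-19571485), a CpH region of 11 cytosines, in which the cytosine is followed by a base other than guanine. The WYJ7 libraries had 0%, 0% and 6.13%, the SDWT libraries 37.1%, 16.3% and 29.3%, and the pOsNAR2.1-OsNAR2.1 libraries 11.1%, 9.69% and 12.1%. All T4 libraries lay above all WYJ7 libraries, and all SDWT libraries above all pOsNAR2.1-OsNAR2.1 libraries. This gene was named after its values were seen.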

How the data were processed

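The deposited lists hold called regions for CK, SDWT and pOsNAR2.1-OsNAR2.1 against WYJ7. The authors mapped WGBS reads to the rice genome IRGSP-1.0 with Bismark 0.9.0, kept uniquely mapped reads, removed cytosines of low depth and called regions with methylKit and eDMR. The deposited methylation level of each region is a percent per library, the mean over its cytosines, and the read depth behind it is unknown. The lists also hold the authors' own differences and p-values, which are not printed. The authors' deposited q-value (an adjusted p-value) served only as a filter in one alternative. All 12 WGBS libraries were mapped to groups from their labels. The methylated DNA immunoprecipitation libraries of the series, from another cultivar, were not analysed here.

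Directions and differences were recomputed from the mean levels per library. The authors' feature suffix (upstream, intron, exon) was removed from identifiers, so that a member is a gene. Overlap meant at least 1 bp. pOsNAR2.1-OsNAR2.1 was compared with SDWT by a two-sided exact permutation test with Benjamini-Hochberg adjustment, tested on simulated data. Analysis used Python 3.11.15, numpy 2.4.6, pandas 2.3.3 and matplotlib 3.10.9. The members and lists were chosen with earlier results of these data known. Genes were named by rule: the 20 members with a shared site and the largest smaller absolute difference of the lines from WYJ7, the 8 other members with the largest such difference, the 4 with the most regions, the 5 with opposite directions and the largest such difference, and up to 5 with exon regions in both lines. Members in lists of nitrogen use, methylation machinery and other functions were also to be named, but 0 of the 5284 listed identifiers matched the gene table used here, so those lists gave no names. Alternatives were a difference of at least 25 points, at least 5 cytosines, q up to 0.01, CpG regions only, upstream regions left out, 50% overlap, identical boundaries, each replicate left out in turn and a replicate block.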

Additional observations from a re-analysis of the deposited data

Results flagged for a closer look

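At 23 of the 96 overlapping pairs with identical boundaries every SDWT library lay on one side of the WYJ7 mean and every pOsNAR2.1-OsNAR2.1 library on the other. The exact permutation test over the 96 sites included them, but its outcome there was fixed. Such a choice of sites separates the lines completely and so sets the exact p at 0.1, the smallest that 3 libraries against 3 can give. Their p-values therefore carry no information about the difference between the lines. For the genes named by rule the difference in level, pOsNAR2.1-OsNAR2.1 minus SDWT, was 96.4 percentage points upstream of EPlOSAG00000044296, 90.1 upstream of OS10G0562000, 72.5 in an exon of OS01G0257300 and 71.9 in an exon of OS02G0518000. It was -65.8 points upstream of EPlOSAG00000004955, where the order of the lines was reversed. OS01G0257300 had 1 SDWT library at 59.8% and the other two at 0%.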

How the results depend on the processing

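The gene choice depended on the region filter. It gave 109 genes with a difference of at least 25 points, 47 with at least 5 cytosines and 39 with upstream regions left out, against 200. Genes with a shared site numbered 89, 41 and 26 under these settings and 95 when boundaries had to be identical, against 155. Genes with the same direction in both lines numbered 70, 35 and 21, against 135. Sites at the smallest p numbered 69 when any overlap was allowed, against 39. The other 95 of 106 alternatives left each value within its limits, including 195 genes with q up to 0.01, 199 with CpG regions only and 123 shared-site genes at 50% overlap. These limits were wide: a fixed fold change for counts, a binomial interval for shares, and 6.71 points with the sign kept for the median difference. A value within them may still have moved, as from 155 to 123 shared-site genes. Reading identifiers with their suffix, an alternative chosen after seeing the data, gave 193 genes.

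The authors' calls could not be repeated without a library, so a rule of a 20-point difference in mean levels stood in for them. It gave 157 genes with all libraries and 137 to 162 with each library left out, 110 to 133 with a shared site and 92 to 113 with the same direction. The share of hyper-DMRs was 59.9% to 63.5% in SDWT and 85.8% to 87.9% in pOsNAR2.1-OsNAR2.1. These runs drew only on the authors' listed regions and kept those of unchanged direction, so the shares had little room to move. With the replicate number as a block, 45 sites had same-numbered differences of one sign, where the smallest sign-flip permutation p is 0.25. Whether equal replicate numbers pair the samples is not known and was not tested. Same-numbered correlations were 0.145, 0.150 and -0.00598, and libraries of 2 of 3 numbers correlated best with their own number. Read depth per region is unknown, so levels of 0% and of 100% have no counting interval.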
